A study of Mus musculus with 44 samples.

Results

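The ubiquitin and proteasome genes of a single-cell RNA-seq table of sorted bone macrophages are described here. They are the genes whose symbols begin with Psm followed by a subunit letter from a to g, Ube2, Ube3, Uba, Usp, Cul, Fbxl, Fbxw or Fbxo, and 78 of the 3613 genes in the table matched. Of these, 40 encode proteasome subunits, activators or assembly factors, of which 2 are immunoproteasome subunits, and 38 encode enzymes of the ubiquitin pathway or related proteins. The comparison of groups was limited to genes detected in 10 cells or more of the 44, which kept 74 of the 78 and 3271 of all genes.

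The table holds 20 cells labelled as cultured for 16 h with 50000 added megakaryocytes, called with-MK cells below, and 24 cells labelled as cultured for 16 h with none, called without-MK cells. Both groups are described as primary osteomacs, the macrophages that line bone, from neonatal calvarial cultures of C57BL/6J mice, sorted as CD45+F4/80+CD41- and captured one by one on a Fluidigm C1 chip. With-MK cells all came from plate 7 and without-MK cells all from plate 3, so plate, capture and culture cannot be told apart. An abbreviation for megakaryocytes also stands in the titles of the without-MK cells, against the treatment given for them. Since neither animals nor separate cultures are labelled, each group counts as 1 sample whose cells are no replicates, and the groups could not be tested against each other. Every difference below describes these cells. Intervals of ratios cover the counting of reads only, and reads without molecular identifiers are not independent molecules. Intervals of shares treat the cells of a plate as independent draws and do not cover variation between cultures or animals.

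The labelled cell type held on 1 plate and not on the other. Of 20 macrophage markers, 19 were listed and all 19 were higher in with-MK cells. Their summed level per cell was 4051, 24541 and 56772 reads per 1e+06 library reads (CPM) at the lowest, median and highest with-MK cell, against 0, 11.6 and 176 CPM in without-MK cells, and 5 of the 19 had no read in any without-MK cell. The CD45 gene Ptprc was detected in 20 of 20 with-MK cells and 1 of 24 without-MK cells, and the F4/80 gene Adgre1 in 17 and 1. Of 18 osteoblast and fibroblast markers 7 were listed, with 3.88, 11.2 and 196 CPM in with-MK cells and 4276, 10051 and 98080 CPM in without-MK cells. Of 10 megakaryocyte markers 1 was listed, Pf4, which macrophages can also express, with 1694 CPM in with-MK cells, read in 16 of 20, and 0.483 CPM in without-MK cells, read in 5 of 24. None of 9 lymphoid, endothelial and erythroid markers was listed. The markers of the gate were thus at or near 0 in without-MK cells, and the groups differ in these cell type markers as well as in culture. Their part in each difference below was not tested. Library reads ranged from 69181 to 1212604 with a median of 834834 in with-MK cells and from 270537 to 714465 with a median of 527930 in without-MK cells. With-MK cells 11 and 16 were far shallower than the rest.

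Ubiquitin is a small protein that is activated by an E1 enzyme, passed to an E2 conjugating enzyme and attached to a substrate with the help of an E3 ligase, such as a cullin with its F-box or other adaptor. Deubiquitinases, of which the Usp proteases are the largest family, remove it. Chains of ubiquitin send many proteins to the 26S proteasome, a 20S barrel of alpha and beta subunits capped by the 19S particle, whose ATPases unfold the substrate. Under interferon, and in many immune cells at rest, the catalytic beta subunits Psmb5, Psmb6 and Psmb7 can be replaced by Psmb8, Psmb9 and Psmb10, which form the immunoproteasome and shift the cut sites towards peptides that fit MHC class I. The PA28 cap, made of Psme1 and Psme2, is induced by interferon-gamma too.

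Psmb8 and Psmb9 were the 2 immunoproteasome genes listed, and Psmb10 was not analysed here. They lie close together in the MHC on chromosome 17, Psmb8 at chr17:34197721-34201454 on the plus strand and Psmb9 at chr17:34181987-34187764 on the minus strand (GRCm38, GENCODE M21). Psmb9 shares annotated exon bases with Tap1, the peptide transporter gene next to it. How reads in such bases were counted is not given in the sources used here. The promoter windows below, from 250 bases before to 50 after the RefSeq start (GRCm38.p6, 5′ to 3′ on the gene's strand), are shown for these genes and for Psmb5, the standard subunit that Psmb8 replaces, because the immunoproteasome genes and Psmb5 differed between the groups in opposite directions. Capitals mark a match to the interferon-gamma activated site TTCNNNGAA.
Psmb8 (chr17:34197945-34198244, plus strand): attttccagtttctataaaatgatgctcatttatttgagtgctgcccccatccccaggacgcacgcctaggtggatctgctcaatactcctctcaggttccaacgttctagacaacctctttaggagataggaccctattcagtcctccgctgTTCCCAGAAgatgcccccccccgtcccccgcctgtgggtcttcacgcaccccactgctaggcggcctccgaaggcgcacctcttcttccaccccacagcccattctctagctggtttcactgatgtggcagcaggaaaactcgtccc
Psmb9 (chr17:34187281-34187580, minus strand): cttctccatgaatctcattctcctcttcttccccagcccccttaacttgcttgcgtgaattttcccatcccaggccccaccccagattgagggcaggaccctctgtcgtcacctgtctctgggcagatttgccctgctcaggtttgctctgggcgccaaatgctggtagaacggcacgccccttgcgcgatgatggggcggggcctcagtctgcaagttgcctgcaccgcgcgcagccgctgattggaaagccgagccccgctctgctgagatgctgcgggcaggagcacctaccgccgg
Psmb5 (chr14:54617946-54618245, minus strand): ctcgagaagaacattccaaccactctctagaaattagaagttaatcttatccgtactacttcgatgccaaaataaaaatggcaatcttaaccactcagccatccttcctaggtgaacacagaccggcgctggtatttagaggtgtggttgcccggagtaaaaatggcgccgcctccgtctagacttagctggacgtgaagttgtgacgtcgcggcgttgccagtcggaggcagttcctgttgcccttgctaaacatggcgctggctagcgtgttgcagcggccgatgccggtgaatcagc
The Psmb8 window held 1 such match, 97 to 89 bases before the start. By the GENCODE spans given above, the Psmb8 and Psmb9 windows lie inside the genes, past an annotated start further upstream, so they cover the start that RefSeq uses and not that one. The windows of Psmb9 and Psmb5 held none, and none of the 3 held the interferon-stimulated response element, searched as TTTC, any 2 bases and TTTC again. Both strands were searched. The response element was found in 3.44% of the 32851 mouse promoter windows and in those of Psmb3 and Psmg4 among the members, and the activated site in 8.30% and in those of Psmb8, Psmd2, Uba1 and Ube2d3. RefSeq windows were matched for 64 of the 78 genes. A match is a description of the letters and no evidence of binding.

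Psmb8 was read in most with-MK cells and in no without-MK cell. It had a read in 17 of 20 with-MK cells (85%, exact 95% interval 62.1 to 96.8%) and in 0 of 24 without-MK cells, which allows a share of up to 12.5% by the limit of 3 cells of 24 and of 14.2% by the exact interval. Its level was 0, 98.1 and 599 CPM at the lowest, median and highest with-MK cell, from 2750 reads in all, against 0 reads in without-MK cells. The pooled level, meaning summed reads over summed library reads, was 176 CPM in with-MK cells. Set against a floor of 3 reads over the 24 without-MK cells, or 0.242 CPM, it was at least 728-fold higher (log2 9.51). That bound depends on the floor and on depth. The exact 95% counting limit, which uses the 0 reads and no floor, was 591-fold. The bound with cells thinned to 250000 reads was 8.4 on the log2 scale. In 13 with-MK cells Psmb8 reached 10 CPM, and with each cell thinned to 250000 reads it was still read in 13 of 18 with-MK cells and 0 of 24 without-MK cells. Among all genes compared, 1.04% had no read in any without-MK cell, and Psmb8 was the 1 member of 74 that did (1.35%).

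The level of Psmb8 varied widely among the with-MK cells. Cells 13 and 9 had the highest levels, 599 and 589 CPM, and cells 3, 18 and 20 had a single read each. Cells 14, 16 and 19 had none. Cell 16 is one of the 2 shallow libraries, where 3 reads would already be 41.9 CPM, while cells 14 and 19 had 800288 and 1103554 library reads and floors of 3.75 and 2.72 CPM. Both of those floors lie far below the group median of 98.1 CPM.

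Psmb9 was read in fewer with-MK cells, and again in no without-MK cell. It had a read in 9 of 20 with-MK cells (45%, exact 95% interval 23.1 to 68.5%) and 0 of 24 without-MK cells, with 772 reads against 0 and a pooled level of 49.4 CPM in with-MK cells, at least 204-fold above the floor. The exact 95% counting limit for Psmb9 was 166-fold. Its lowest, median and highest with-MK cells had 0, 0 and 525 CPM. With-MK cell 20 held 54.5% of the reads, and without it the log2 bound was 6.55 in place of 7.67. With 9 cells read, Psmb9 was below the limit of 10 cells and stood outside the counts of genes compared.

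The same cells did not lead for both genes. All 9 cells with a Psmb9 read also had a Psmb8 read, which is 52.9% of the Psmb8 cells. Among these 9, cells 4 and 17 had a single Psmb9 read each, and cells 7 and 20 had 8.02 and 1.25 CPM of Psmb8. The 3 cells with the highest Psmb8 levels, 13, 9 and 6, had no Psmb9 read, and cell 20, highest for Psmb9, had 1 read of Psmb8. Spearman's rho between the genes over the 20 with-MK cells, which share the plate, was −0.02, and −0.11 over the 18 without the shallow cells. Summed, the 2 genes had 0, 211 and 599 CPM at the lowest, median and highest with-MK cell against 0 in every without-MK cell, and 225 CPM pooled, at least 932-fold above the floor. The groups overlapped in the 3 with-MK cells at 0.

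**Figure D1:**
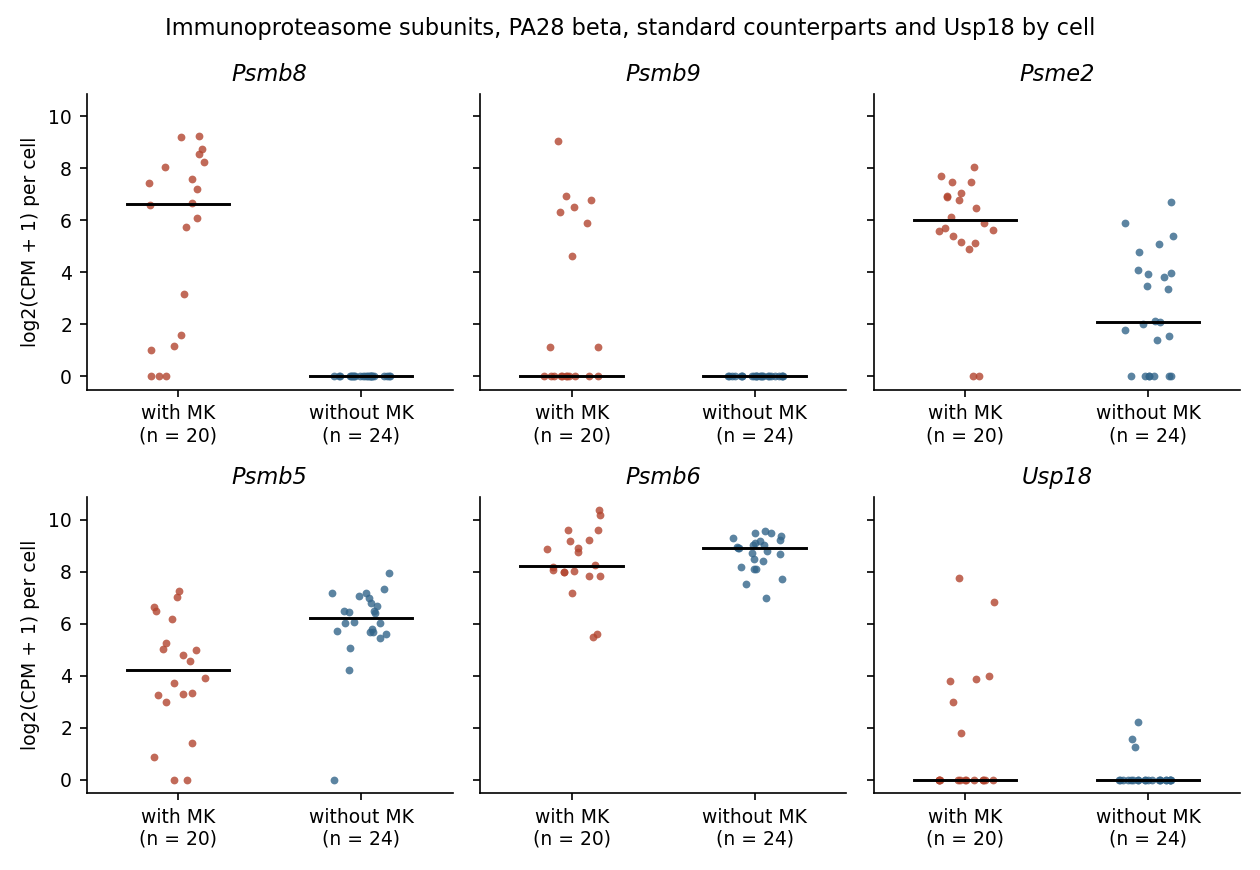
Levels of Psmb8, Psmb9, Psme2, Psmb5, Psmb6 and Usp18 as log2(CPM + 1) in each of the 20 with-MK cells (left) and 24 without-MK cells (right). Points are cells spread sideways for legibility and bars are medians. Psmb8 and Psmb9 sit at 0 in every without-MK cell, Psme2 and Usp18 have some reads there, and Psmb5 has its higher median there.

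The 3 standard catalytic subunits differed from one another. Psmb5, which carries the chymotrypsin-like activity, had 0, 18.3 and 154 CPM at the lowest, median and highest with-MK cell and 0, 75.1 and 245 CPM in without-MK cells. Pooled, that was 36.8 CPM in with-MK cells and 91.2 CPM in without-MK cells, a log2 ratio of −1.31 (2.48-fold lower, 95% interval 2.24 to 2.74). Psmb6, which carries the caspase-like activity, was read in every cell and had 472 CPM in with-MK cells and 449 CPM in without-MK cells (log2 0.07). Psmb7, which carries the trypsin-like activity, had 111 and 176 CPM (log2 −0.67), and was read in 15 of 20 with-MK cells and 24 of 24 without-MK cells.

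Levels between genes were compared per kilobase of the longest protein-coding transcript. On that scale Psmb8 had a pooled level of 108 CPM per kb in with-MK cells and Psmb5 had 41.0 CPM per kb, so that Psmb8 was 2.64 times as high, and it lay above Psmb5 in 12 of 20 with-MK cells. Psmb5 had 101 CPM per kb in without-MK cells. Psmb9 had 36.5 CPM per kb in with-MK cells, against 592 CPM per kb for Psmb6, the subunit it replaces, and lay above it in 0 of 20 cells. The 2 replacement pairs therefore stood in opposite order.

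Psme2, the beta chain of the PA28 cap, was the other proteasome gene much higher in with-MK cells. It was read in 18 of 20 with-MK cells and 17 of 24 without-MK cells. Its lowest, median and highest cells had 0, 64.3 and 261 CPM with MK and 0, 3.30 and 102 CPM without, and the pooled levels were 99.7 and 13.8 CPM (log2 2.86, 7.24-fold, 95% interval 6.18 to 8.53). At 10 CPM or more it was read in 18 with-MK cells and 9 without-MK cells. Psme2b, a near-copy of Psme2 on chromosome 11, had 3.52 and 0.805 CPM (log2 2.13), and was read in 14 with-MK cells, all among those with Psme2. Reads shared between such near-identical copies may be split by the authors' counting, so the value of Psme2b is uncertain. Psme2b also shares annotated exon bases with the coding gene 9930111J21Rik1. Psme4, the alternative cap PA200, had 95.4 and 88.7 CPM (log2 0.11), with 59.2% of its with-MK reads in cell 5 and a log2 ratio of −0.85 without the top cell of each group.

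Counts over all members, set beside the whole table, showed few genes higher and as many lower as elsewhere. A gene is called here where its pooled level differed at least 2-fold and its mean log2(CPM + 1) over cells lay in the same direction. By this rule 7 of 74 members were higher in with-MK cells, or 9.46%, where 21.5% of all 3271 genes were. 21 of 74 members were lower, or 28.4%, where 28.2% of all genes were. The members called higher were Psmb8, Psme2, Psme2b, Usp18, Usp15, Ube2l3 and Fbxo46. No member separated the groups completely (0.703% of all genes did).

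Smaller differences leaned further towards lower values than in the table as a whole. The mean log2(CPM + 1) was lower in with-MK cells for 67 of 74 members (background 72.2%), the pooled level for 49 (background 53.4%), and the share of cells with a read for 62 (background 70.5%). The median log2 pooled ratio was −0.44 over the members and −0.14 over all genes, and the median difference in mean log2(CPM + 1) was −1.99 and −1.10. With cells thinned to 250000 reads the share was smaller for 61 members (70.3% of all genes), and counting a cell only at 10 CPM or more it was smaller for 66 (72.2%). The mean log and pooled values disagreed for 18 members (background 19.2%), which had the lower mean log level but the higher pooled level in with-MK cells.

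The genes of the 20S barrel differed little in pooled sum. All 14 had a lower mean log level in with-MK cells, where 72.2% of all genes did. None of the 7 alpha subunits, which form the outer rings, was called in either direction. Of the 7 standard beta subunits Psmb5 alone was called, as lower, where 28.2% of all genes were. The log2 pooled ratios ran from −0.72 for Psma3 to 0.40 for Psma1 among the alpha genes, and from −1.31 for Psmb5 to 0.63 for Psmb4 among the beta genes. Psma3 had 0, 53.0 and 174 CPM at the lowest, median and highest with-MK cell and 39.6, 113 and 181 CPM in without-MK cells. Summed over the 14 genes, the barrel had 461, 3639 and 6145 CPM in with-MK cells and 1358, 4178 and 5845 CPM in without-MK cells, and 18 of 20 with-MK cells lay within the range of the without-MK cells. The ratio of the pooled sums was 0.881 (95% interval 0.870 to 0.891).

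The summed level of the 17 Psmc and Psmd genes, taken here as the 19S particle, was lower in with-MK cells. This set goes by symbol, so it includes the assembly chaperone Psmd5 and leaves out Shfm1 and Adrm1. Shfm1 had 319 CPM in with-MK cells and 156 CPM in without-MK cells and was called higher. Adrm1 had 20.1 and 33.3 CPM and was not called. All 17 Psmc and Psmd genes had a lower mean log level, as had all 14 of the barrel, where 72.2% of all genes did. Of these 17 genes 6 were called lower and none higher, where 28.2% and 21.5% of all genes were. Their summed level was 531, 3622 and 6476 CPM in with-MK cells and 2863, 5454 and 10087 CPM in without-MK cells. The ratio of the pooled sums was 0.665 (95% interval 0.657 to 0.672), and 8 of 20 with-MK cells lay below the lowest without-MK cell. Among the ATPases of the base, Psmc2 was called lower, with 195 CPM in with-MK cells and 433 CPM in without-MK cells (log2 −1.15), and Psmc5 had 190 and 302 CPM (log2 −0.67) with reads in 14 of 20 and 24 of 24 cells.

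5 of the 11 non-ATPase genes were called lower, where 28.2% of all genes were. Psmd7, the Rpn8 subunit that pairs with the deubiquitinase Psmd14 in the lid, had 0, 21.4 and 693 CPM at the lowest, median and highest with-MK cell and 35, 387 and 854 CPM in without-MK cells. Pooled, it had 143.9 and 415 CPM (log2 −1.53), and was read in 14 of 20 and 24 of 24 cells. Psmd12, the lid subunit Rpn5, had 110 and 303 CPM (log2 −1.46) and reads in the same numbers of cells. The lid thus held genes of both kinds, since Psmd14 had 478 CPM in with-MK cells and 441 CPM in without-MK cells (log2 0.11). Psmd5, a chaperone of base assembly, had 80.4 and 205 CPM (log2 −1.35). Psmd6 had 185 and 406 CPM (log2 −1.13), and Psmd11 had 101 and 212 CPM (log2 −1.08).

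Among the assembly factors of the barrel, Psmg2 and Psmg3 were called lower. Psmg3 had 14.6 CPM in with-MK cells and 48.6 CPM in without-MK cells (log2 −1.74) and was read in 6 and 20 cells. Psmg2 had 29.5 and 103 CPM (log2 −1.80), and −2.55 without the top cell of each group, since with-MK cell 12 held 49.1% of its reads. Psmg4 had 17.6 and 11.4 CPM (log2 0.63). The inhibitor Psmf1 had 65.3 and 90.5 CPM (log2 −0.47). Taking the 38 proteasome genes outside the immunoproteasome together, 2 were called higher and 9 lower, where 21.5% and 28.2% of all genes were. Their pooled sum was 7634 CPM in with-MK cells and 10005 CPM in without-MK cells, a ratio of 0.763 (95% interval 0.757 to 0.769).

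**Figure D2:**
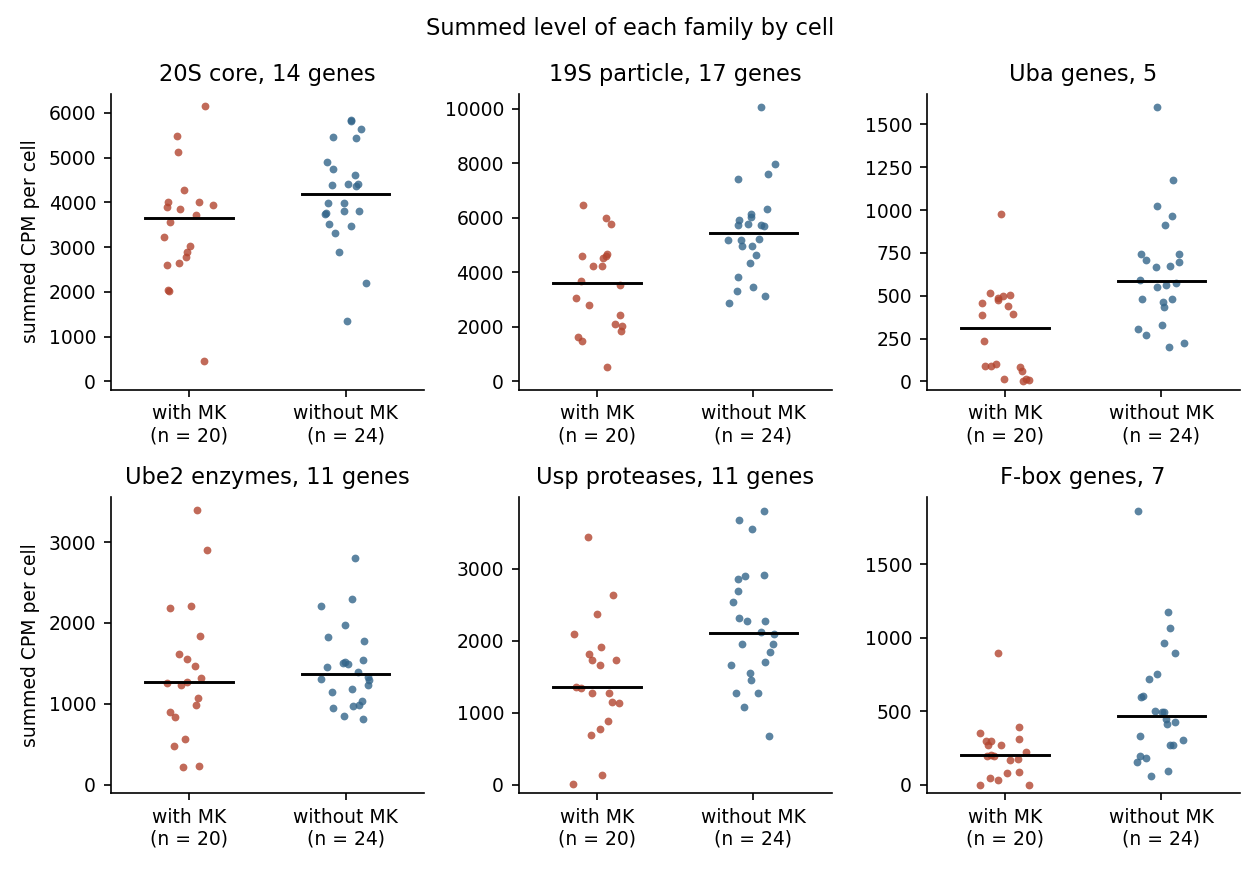
Summed CPM per cell of 6 families in the 20 with-MK cells (left of each panel) and 24 without-MK cells (right). Points are cells and bars are medians, on linear axes. The 20S core and the Ube2 enzymes overlap widely. The 19S particle (Psmc and Psmd genes), Uba, Usp and F-box sums have lower medians in with-MK cells.

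Of the 5 Uba genes 2 were called lower and none higher, where 28.2% and 21.5% of all genes were. Uba1, the main ubiquitin-activating enzyme, had 0, 33.8 and 472 CPM at the lowest, median and highest with-MK cell and 0, 234 and 799 CPM in without-MK cells, and its pooled levels were 104 and 243 CPM (log2 −1.22). Uba3, the catalytic subunit of the enzyme that activates NEDD8, had 0, 1.65 and 274 CPM in with-MK cells and 0, 152 and 1190 CPM in without-MK cells, and pooled levels of 37.7 and 178 CPM (log2 −2.24). Uba6, an alternative ubiquitin E1, was not called (log2 0.35). With-MK cell 17 held 61.5% of the Uba6 reads, and the log2 ratio was −0.51 without the top cell of each group. Over the 5 Uba genes the pooled sum was 312 CPM in with-MK cells and 621 CPM in without-MK cells.

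The E2 enzymes were mixed, and their summed levels were near each other, 1507 CPM in with-MK cells and 1460 CPM in without-MK cells. Of 10 compared, 1 was called higher and 2 lower, where 21.5% and 28.2% of all genes were. Ube2w, which can attach ubiquitin to the N-terminus of proteins, had the largest difference in mean log level of the family. It had 0, 1.14 and 497 CPM at the lowest, median and highest with-MK cell and 0, 143.9 and 710 CPM in without-MK cells, pooled levels of 63.4 and 196 CPM (log2 −1.63), and reached 10 CPM in 4 of 20 and 23 of 24 cells. Ube2j1, an enzyme of the endoplasmic reticulum membrane, had 140 and 227 CPM (log2 −0.70).

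Ube2l3, the E2 known as UbcH7, was the one called higher, with 355 CPM in with-MK cells and 171 CPM in without-MK cells (log2 1.05). Cell 6 held 28.9% of its with-MK reads, and without the top cell of each group the log2 ratio was 0.77 and the gene was no longer called. It shares annotated exon bases with Ydjc. Ube2g1 had 121.04 and 59.2 CPM (log2 1.03), but cell 4 held 68.6% of its with-MK reads and the log2 ratio was −0.29 without the top cell of each group. Ube2a, a RAD6 homologue, had 211 and 117 CPM (log2 0.85), and Ube2d3 was read in every cell at 269 and 289 CPM (log2 −0.10). Ube2h, Ube2k and Ube2q2 were not called, with log2 ratios of 0.02, −0.59 and 0.57. Ube2l6, the enzyme that conjugates the interferon-induced modifier ISG15, was read in 4 with-MK cells and 3 without-MK cells and was too sparse to be compared.

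The member with the lowest ratio and the lowest difference in mean log level was a deubiquitinase, and of 10 Usp genes compared 3 were called lower and 2 higher, which is near the shares of all genes, 28.2% and 21.5%. Usp10, a cytoplasmic enzyme that acts on p53, had 0, 0 and 116 CPM at the lowest, median and highest with-MK cell and 0, 80.2 and 525 CPM in without-MK cells. It was read in 6 of 20 and 23 of 24 cells, and its pooled levels were 7.61 and 152 CPM (log2 −4.32, 20.0-fold lower, 95% interval 16.6 to 24.3). Cell 17 alone held 83.2% of the with-MK reads, and the log2 ratio was −6.63 without the top cell of each group. Usp7, which acts on Mdm2 and p53, had 0, 0.453 and 112 CPM in with-MK cells and 0, 131.5 and 618 CPM in without-MK cells, and pooled levels of 9.02 and 152 CPM (log2 −4.07, or −4.90 without the top cell of each group, with 56.0% of the with-MK reads in cell 6). Usp34 had 57.1 and 260 CPM (log2 −2.19, or −2.78 without the top cell of each group, with 41.7% of the with-MK reads in cell 1). Usp10 and Usp7 thus lay near 0 in most with-MK cells and above 10 CPM in 22 and 21 of the 24 without-MK cells.

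Other Usp genes stood the other way or level. Usp18, which removes ISG15 and restrains type I interferon signalling, had 0, 0 and 217 CPM at the lowest, median and highest with-MK cell and 0, 0 and 3.70 CPM in without-MK cells. It was read in 7 of 20 cells with 317 reads and in 3 of 24 cells with 1 read each, a log2 pooled ratio of 6.39. With-MK cell 17 held 58.7% of the reads, and the ratio was 5.70 without the top cells. Usp15 had 0, 172 and 1546 CPM in with-MK cells and 0, 79.7 and 434 CPM in without-MK cells, and pooled levels of 334 and 135.6 CPM (log2 1.30). Usp22, the deubiquitinase of the SAGA complex, had 763 and 989 CPM (log2 −0.38). Usp8, Usp36, Usp40 and Usp47 were not called, with log2 ratios from −0.70 for Usp47 to 0.31 for Usp40. With-MK cell 4 held 81.8% of the Usp40 reads, and that ratio was −1.43 without the top cells, while Usp36 had −0.63 and then −1.48, with 55.8% of its reads in cell 8. Usp2 was read in 3 with-MK cells and 2 without-MK cells, too few to be compared.

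Among the Ube3, cullin and F-box members, 5 were called lower and 1 higher, where 28.2% and 21.5% of all genes were. Ube3a, the E6-AP ligase, had 0, 9.32 and 339 CPM at the lowest, median and highest with-MK cell and 0, 159 and 910 CPM in without-MK cells, and pooled levels of 55.2 and 233 CPM (log2 −2.08). Ube3c had 52.4 and 51.6 CPM (log2 0.02) but was read in 5 and 18 cells. Of the cullins, which hold the ligase together, Cul3 had 208 and 217 CPM (log2 −0.06) and Cul5 172 and 313 CPM (log2 −0.86). Without the top cell of each group Cul5 had −1.35 and met the rule for lower.

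Among the F-box genes, whose proteins bring substrates to the Cul1 ligase, 4 of 6 were called lower, where 28.2% of all genes were. Fbxo11 had 0, 0 and 393 CPM at the lowest, median and highest with-MK cell and 0, 59.6 and 983 CPM in without-MK cells, and pooled levels of 25.6 and 148 CPM (log2 −2.53, or −3.14 without the top cell of each group, with 50% of the with-MK reads in cell 18). Fbxo30 had 52.9 and 198 CPM (log2 −1.91). Fbxw5 had 4.86 and 78.5 CPM (log2 −4.01, or −5.65 without the top cell of each group, with 77.6% of the with-MK reads in cell 17), and Fbxo9 had 7.10 and 34.6 CPM (log2 −2.28, or −3.0 without the top cell of each group, with 53.2% of the with-MK reads in cell 14). Fbxo46 was the exception, with 75.9 and 33.3 CPM (log2 1.19), although 9 of 20 with-MK cells and 13 of 24 without-MK cells had a read, and without the top cell of each group its log2 ratio was 1.13 but the mean log level no longer lay in the same direction. Fbxo46 shares annotated exon bases with Qpctl. Fbxo22 had 61.6 and 55.1 CPM (log2 0.16, or −1.17 without the top cell of each group, with 67.7% of the with-MK reads in cell 13). Fbxo25 was read in 1 with-MK cell and 3 without-MK cells. Summed, the 7 listed F-box genes had 228 CPM in with-MK cells and 549 CPM in without-MK cells, a ratio of 0.415 (95% interval 0.399 to 0.433).

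**Figure D3:**
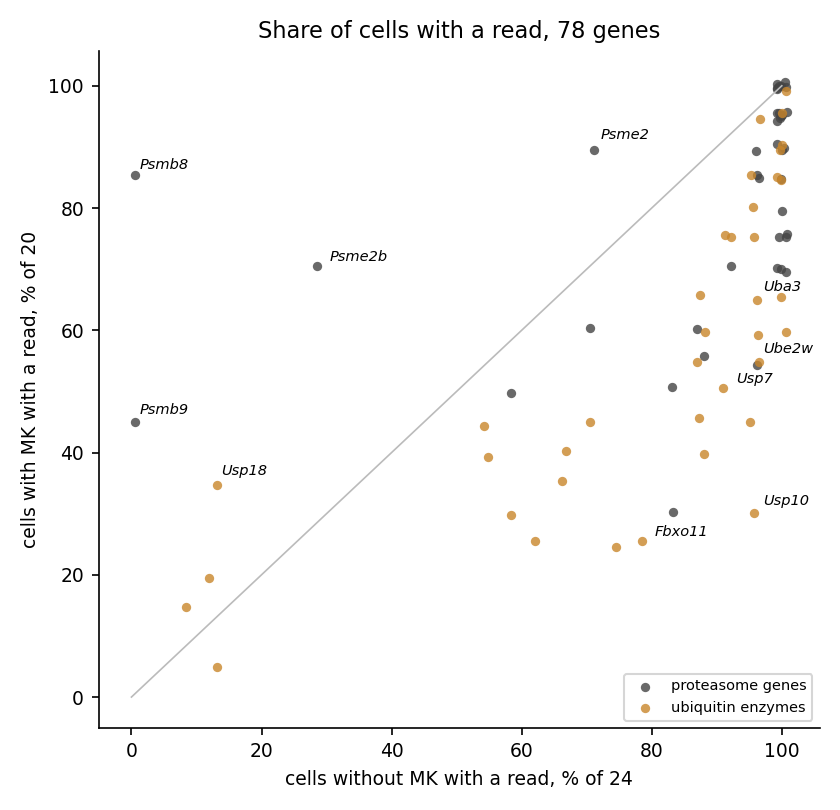
Share of the 20 with-MK cells (y axis) and of the 24 without-MK cells (x axis) with a read, in percent, for the 78 genes, with proteasome genes in grey and ubiquitin enzymes in orange. Points are moved at random by under 1 point so that they do not hide each other, and the line marks equal shares. Most genes lie below the line, and Psmb8, Psmb9, Psme2, Psme2b, Usp18, Ube2l6 and Usp2 lie above it.

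How many members a cell expressed differed in level and in spread. A with-MK cell had a read of 33, 55 and 66 of the 78 genes at the lowest, median and highest, and a without-MK cell of 55, 66 and 71. At 250000 reads per cell the numbers were 33, 50 and 63 in 18 with-MK cells, with the 2 shallow ones left out, and 54, 63 and 70 in 24 without-MK cells. All listed genes moved with it, with a median of 2054 read in a with-MK cell and 2492 in a without-MK cell. The SD between cells of the log2 summed level of all members was 0.72 in with-MK cells, or 0.35 without the 2 shallow ones, and 0.20 in without-MK cells. 8 members were read in all 44 cells, namely Psma4, Psma7, Psmb6, Psmc1, Psmc4, Psmd1, Psmd2 and Ube2d3, which is 10.8% of those compared, against 6.57% of all genes.

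The interferon-linked members were also set beside other interferon response genes, cell by cell. Of 25 interferon response genes outside the family, 16 were listed. All 13 compared were called higher in with-MK cells, where 21.5% of all genes were. Among them, Rtp4 had 217 CPM in with-MK cells and 0.0805 CPM in without-MK cells and Oasl2 had 154 and 0.242 CPM. The summed level of the 16 listed genes was 206, 1120 and 2356 CPM at the lowest, median and highest with-MK cell and 0, 12.4 and 262 CPM in without-MK cells. Within the 20 with-MK cells, Spearman's rho with this sum was −0.06 for Psmb8, 0.27 for Psme2 and 0.20 for Usp18, and Psmb8 with Psme2 had 0.01. Without the 2 shallow cells these were −0.22, 0.40, 0.24 and −0.10. Pairs of these members not given here were not computed. Cell 9, with 589 CPM of Psmb8, had an interferon sum of 223 CPM, and cell 3, with 1 Psmb8 read, had 2052 CPM. Psme2b with Psme2 had 0.78, or 0.74 without the shallow cells, which reads shared between near-copies can also give. All points share the plate, and zeros make such values coarse.

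**Figure D4:**
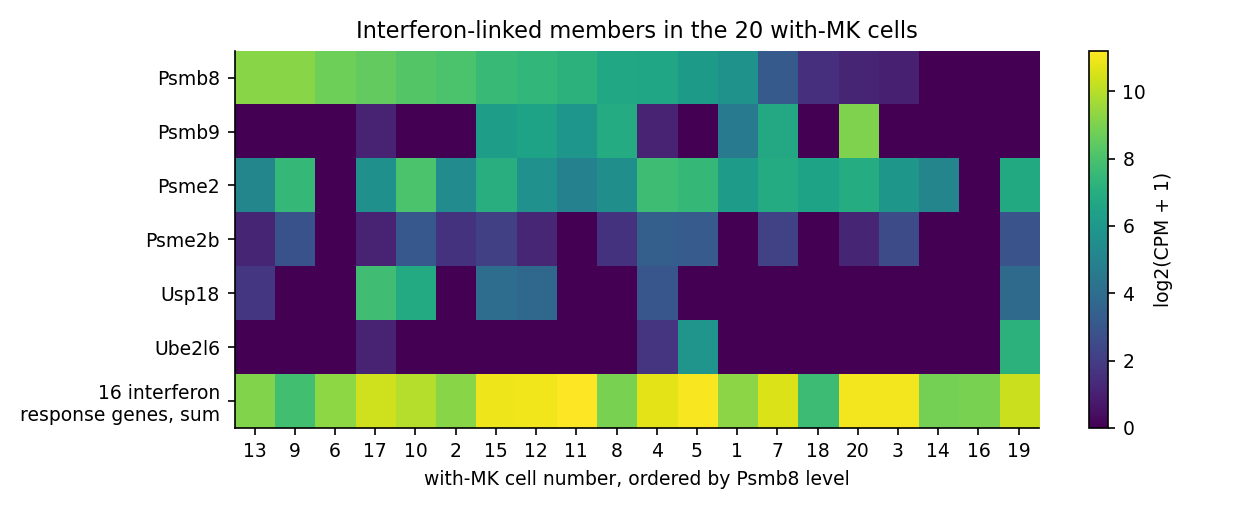
Levels of Psmb8, Psmb9, Psme2, Psme2b, Usp18 and Ube2l6 and the sum of the 16 listed interferon response genes in the 20 with-MK cells, as log2(CPM + 1) on a colour scale, with cells ordered by Psmb8. The lowest interferon sums, 206 and 223 CPM, are in cells 18 and 9, which lie far apart in the order, and cells 14, 16 and 19 at the right end have no Psmb8 read.

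By the rule for likeness, the genes with the highest Spearman's rho with Psmb8 over the 20 with-MK cells, among 2203 genes read in at least 10 of them, were Chd8 (0.73), Acp2 (0.70), Gatad1 (0.68), Skap2 (0.67) and Suco (0.66). They are the top of a long ranking on 20 cells and are named as such. H2-K1 stood at rank 171 with 0.37 and B2m at 1593 with −0.07.

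Neighbouring genes of the pathway that the symbol rule leaves out were counted in the same way. Of 12 compared genes of class I antigen processing outside the proteasome, 6 were called higher and 2 lower. H2-K1, a class I heavy chain whose reads may be split with its close relatives, had 399 CPM in with-MK cells and 22.4 CPM in without-MK cells (log2 4.15), and Ide, a cytosolic peptidase, had 598 and 1763 reads (log2 ratio of levels −1.89). Of 7 genes for ubiquitin and related proteins none was called higher and 3 lower, among them Sumo3 (log2 −1.38). Of 19 cullin adaptors and regulators none was higher and 7 lower, among them Cops7a of the COP9 signalosome (14.5 and 135.7 CPM, log2 −3.23), while Cops2 had 191 and 345 CPM (log2 −0.85) and was not called.

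Of 15 other ubiquitin ligases 4 were higher and 3 lower. Trim30a had 409 CPM from 6397 reads in with-MK cells and no read in without-MK cells, at least 1693-fold above the floor, and Smurf2, a ligase of TGF-beta signalling, had 13.2 and 336 CPM (log2 −4.67). Of 8 other deubiquitinases 1 was higher and 3 lower. The higher one was Tnfaip3, the NF-kappaB inhibitor A20, at 439 and 40.3 CPM (log2 3.45), and Mysm1 had 230 and 281 CPM (log2 −0.29). Of 17 shuttling, assembly and control factors of the proteasome 4 were higher and 5 lower, with Faf1 at 20.3 and 51.5 CPM (log2 −1.34) and Rad23b at 47.2 and 77.2 CPM (log2 −0.71). These shares stand beside 21.5% higher and 28.2% lower among all genes.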

How the data were processed

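One table of 3613 genes in 44 cells was used, with 0 columns left out. The authors deposited a signal per gene and cell whose form, worked out from the values, is like RPKM: reads × 1e+09, divided by a cell's library reads and by a whole number fixed for each gene. That number is not a gene length. Library reads were taken from the most frequent value of each cell (within 0.0003 of a whole number), and all 99807 values above 0 then became whole reads (tolerance 0.0001). CPM means these reads × 1e+06 / library reads. The submitters' processing notes name mm10 and Seurat; which aligner, counter and gene models were used is not given in the sources used here. Libraries were SMART-Seq and Nextera XT with 150 b paired-end reads, per the labels.

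Cells were grouped by the treatment field, and no cell was removed, clustered or called a doublet. The titles of both groups carry running numbers, which only name cells. Pooled ratios have exact binomial and shares exact Clopper-Pearson 95% intervals; a group at 0 was given a floor of 3 reads. Calls needed a 2-fold pooled ratio and a mean log2(CPM + 1) in the same direction, over genes read in at least 10 cells. Fold changes on the log2(CPM + 1) scale understate those of low genes. Named genes were the immunoproteasome, the 10 highest and 10 lowest differences, the 2 largest absolute differences per family and per other list, and the 5 genes most like Psmb8; others were named after their values were seen, and some genes are not reported here. The members and lists were chosen with earlier results of these data known. Sparse 1-read detections carry little weight, since Sparc, abundant in without-MK cells, had 56 reads over the 20 with-MK cells. The reads were expected to be deposited as counts and were recovered instead. The read recovery was tested on simulated data only for genes read in many cells, with the library reads taken as known. The estimate of library reads, the assumed form of the signal and sparse genes such as Psmb9 were not tested. Gene positions are from GENCODE M21 and promoters from RefSeq (GRCm38.p6); 17 of the 78 genes share annotated exon bases with another coding gene. Python 3.11.15, numpy 2.4.6, pandas 2.3.3, scipy 1.17.1 and matplotlib 3.10.9 were used. Alternatives were the filter, thinning, the shallow cells, the total, the scaling, the deposited means, the top cells, a pseudocount of 10 CPM, a fold of 3 and, added after seeing the data, a limit of 10 CPM for a read cell.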

Additional observations from a re-analysis of the deposited data

How the results depend on the processing

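No paired analysis was possible because each group is 1 sample and the running numbers in the titles name single cells. Between alternatives the median log2 pooled ratio, the median difference and the standard proteasome sum stayed negative. The summed immunoproteasome could not change direction, since no without-MK cell had a read, and counts of calls have no direction. The 7 members called higher became 4 with the reads of the listed genes as the total, 4 with the means of the deposited values and 4 at a fold of 3, where 18.6%, 20.7% and 16.3% of all genes were called; the 21 called lower became 13 at a fold of 3, where 17.9% of all genes were. The listed genes held 72.0 to 84.8% of library reads in with-MK cells and 58.9 to 69.7% in without-MK cells. A change of total moves every log2 pooled ratio by the same amount. With the listed total the median log2 pooled ratio of all genes was −0.40 in place of −0.14. The cause was not tested for the deposited means, and a larger fold leaves fewer calls by construction. The median log2 pooled ratio of −0.44 was −0.43 with no filter on genes read in few cells, −0.48 with cells thinned to 250000 reads, −0.70 with the listed genes' reads as the total, −0.29 with median-ratio scaling, −0.45 with the deposited means and −0.74 without the top cell of each gene in each group. The median difference of −1.99 was in the same order −1.84, −1.91, −2.29, and then −2.58 with the deposited means, −2.10 without the top cells, −1.94 without the 2 shallow with-MK cells and −1.15 with a pseudocount of 10 CPM. The log2 bound of the summed immunoproteasome, 9.86, was 8.79 with thinned cells, 9.87 without the shallow cells, 9.60 with the listed total, 10.01 with median-ratio scaling and 9.70 without the top cells. It had no value with deposited means, since the without-MK mean is 0. The standard proteasome sum, −0.39, was −0.41 thinned, −0.65 with the listed total, −0.24 with median-ratio scaling, −0.55 with deposited means and −0.37 without the top cells. Median-ratio scaling moved all genes by 0.15.

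For the 34 named genes, 202 values were computed, of which 111 moved by more than their counting interval and none turned a call round. Leaving out the top cells moved 14 of the 74 compared members over 1.5-fold; all 21 lower calls were kept and 7 gained, with 37.8% of all genes then called lower, and 5 of 7 higher calls were kept. Plate, culture and cell identity differ together, each group is 1 sample, and reads are not molecules. Depth limits what a missing read shows: in shallow with-MK cell 16, 3 reads are 41.9 CPM. Thinning also moved genes with many reads, such as Uba3, −2.24 and then −2.74.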
